A study of Mus musculus with 4 samples.

Results

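Spindle cells line the margins of the stria vascularis (SV), the layered epithelium of the cochlear lateral wall that keeps the potassium concentration of the endolymph high. They share the anion exchanger pendrin, encoded by Slc26a4, with root cells of the neighbouring outer sulcus, and loss of pendrin causes the hearing loss of Pendred syndrome. P2rx2 encodes an ATP-gated cation channel that shunts current out of the endolymph when the ear is loaded with noise, and is also a deafness gene. The study clustered spindle and root cells as a single group, and its cluster assignments were not used here.

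Spindle-like barcodes were chosen by their measured counts: at least 2 unique molecular identifiers (UMIs, counted mRNA molecules) of Slc26a4 and P2rx2 together and at most 1 UMI of Lgr5 and Epyc together, the last being genes of root and outer sulcus cells. Each barcode also needed at least 200 genes and Malat1, a nuclear RNA that marks intact cells, at 1% or more of UMIs in cells or 3% or more in nuclei. This gave 86 of the 7439 barcodes that passed the gene and Malat1 limits, from 14387 in all. The series held 3 captures of whole cells and 1 capture of nuclei from SV tissue of untreated CBA/J mice aged 30 postnatal days, which carried no genetic alteration by the labels. Each capture was a suspension pooled from several mice, so that captures, and not mice, are the replicates. The study's supplement counts the mice of each cell capture separately, while the labels do not name them. The captures held 392, 1358 and 1580 barcodes with 2811309, 8113494 and 8340882 UMIs, and the nuclei 11057 barcodes with 22332501 UMIs.

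Spindle-like cells were few in every capture. There were 2 of 166 cells in capture 1, or 1.20% (exact binomial 95% interval 0.146 to 4.28%). Capture 2 held 10 of 643 cells, or 1.56% (0.748 to 2.84%), and capture 3 held 6 of 643, or 0.933% (0.343 to 2.02%). Of the nuclei, 68 of 5987 were spindle-like, or 1.14% (0.883 to 1.44%). These intervals overlap, and all intervals given here cover counting error only. With 3 or more UMIs of Slc26a4 and P2rx2 required, the share of nuclei was 0.601%. Without the Malat1 limit the shares were 0.794%, 0.828% and 0.473% in captures 1 to 3 and 0.757% in nuclei. A share of barcodes depends on how easily each type is released and captured as well as on its abundance in the tissue.

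The spindle-like barcodes were deeper than the others, and a gate on counts favours deep barcodes. Their median depth was 15026.5, 15349 and 11746.5 UMIs in the 3 captures, against 8713.5, 7187 and 5387 in all other cells past the same limits, and 1930 against 1476 in nuclei. They held a median of 3945.5, 4044.5 and 3194 genes, against 2527, 2029 and 1705, and in nuclei 1042.5 against 824. When each barcode was thinned to 1000 UMIs, the cells still held 597, 571 and 597.5 genes against 504.5, 490 and 475, whereas nuclei held 616 against 606 after 151 shallower other nuclei were left out. The complexity at equal depth was thus higher in spindle-like cells in each of 3 captures, and nearly equal in the nuclei. The caller Scrublet placed none of the 18 cells but 16 of the 68 nuclei among its highest doublet scores, and these nuclei were kept. Unmarked were thus 52 of the 68, against 5189 of all 5987 nuclei, so that marked nuclei were more frequent among the spindle-like. Of the cells' barcodes, 1 in capture 2 and 2 in capture 3 also occurred as barcodes of the nucleus library, and the captures shared 2 barcodes between 1 and 2, 6 between 2 and 3 and 0 between 1 and 3.

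The gate genes and markers of the group are described first, without tests, because they chose it or were proposed with it. Slc26a4 (mm10, chromosome 12, 31519827 to 31559969, minus strand) stood at 399, 229 and 327 CPM (UMIs of a gene scaled to a common total of UMIs per sum) in spindle-like cells of captures 1 to 3, and at 1.81, 4.19 and 8.14 CPM in the other cells. P2rx2 (chromosome 5, 110339812 to 110343212, minus strand) stood at 266, 263 and 466 CPM against 0, 1.47 and 1.78. The rule fixes these differences. In nuclei Slc26a4 was at 983 CPM (exact Poisson 95% interval 840 to 1145) against 9.76, and P2rx2 at 344 (261 to 444) against 7.35. Of the 18 cells, 13 held both transcripts, 2 only Slc26a4 and 3 only P2rx2, and of the 68 nuclei 30 held both, 30 only Slc26a4 and 8 only P2rx2.

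Anxa1 (chromosome 19, 20373428 to 20390944, minus strand), a calcium-dependent phospholipid-binding protein, was the strongest of the markers that the gate did not use. It reached 5158, 5284 and 7779 CPM in spindle-like cells, against 27.2, 33.7 and 45.3 CPM in other cells, so the groups were far apart in each capture. In nuclei it was at 1700 CPM (1509 to 1909) against 60.6. It was counted in 17 of 18 cells and in 45 of 68 nuclei, or 66.2% at a median depth of 1930 UMIs. The share was 4.01% in intermediate-like nuclei at 1533.5 UMIs, 4.89% in marginal-like nuclei and 8.44% in basal-like nuclei. Basal-like cells often held it too, at low counts. In captures 1 to 3 it was in 66.7%, 51.5% and 43.9% of them, with 13, 68 and 49 UMIs over 15, 66 and 57 cells. Dpp10 (chromosome 1, 123321471 to 124045559, minus strand), an auxiliary subunit of Kv4 potassium channels, gave 99.8, 54.0 and 62.9 CPM against 2.42, 2.93 and 1.53, from only 16 UMIs in the 18 cells. In nuclei Dpp10 was at 823 CPM (692 to 972) against 124, and was counted in 40 of 68, or 58.8%. It was also counted in 21.6% of marginal-like nuclei, which held 1015 of its 1328 UMIs in other nuclei, and in 2.76% of intermediate-like nuclei. Of the marginal-like cells of capture 2, 7 of 40 held it, and none in captures 1 and 3.

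**Figure D1:**
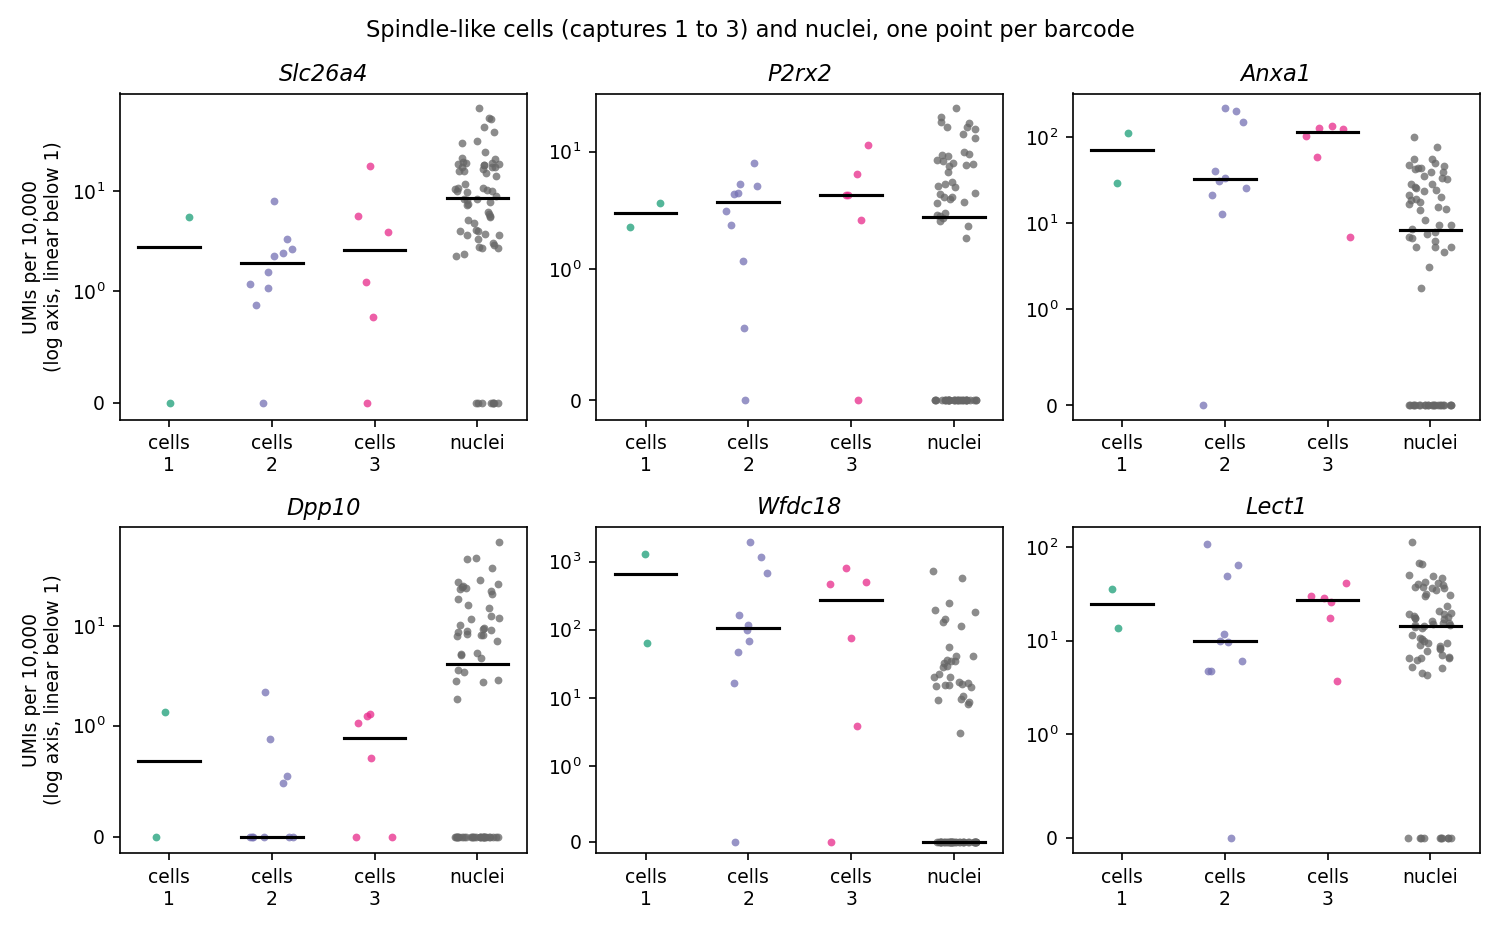
UMIs per 10000 of Slc26a4, P2rx2, Anxa1, Dpp10, Wfdc18 and Lect1 in each spindle-like barcode, by library, on an axis that is linear below 1 and logarithmic above. Each point is a barcode, and black bars are medians. Anxa1 was counted in 17 of 18 cells and 45 of 68 nuclei, Dpp10 in 9 of 18 and 40 of 68.

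Next to the gate's threshold, Anxa1 was compared between barcodes just inside and just outside. In nuclei, the 32 members with exactly 2 UMIs of Slc26a4 and P2rx2 held Anxa1 at 1323 CPM, the 36 with 3 or more at 1970 CPM, and the 134 nuclei just outside, with 1 UMI, at 520 CPM. Kcnj16, a potassium channel, stood at 99.5, 173 and 119 CPM in these nuclei. The 5725 nuclei with none held 49.1 CPM of Anxa1 and 4.92 CPM of Kcnj16. The nuclei just outside, which count among the others, thus lay above them in both genes. In capture 2 the 2 members with 2 UMIs held 1051 CPM of Anxa1, all of it in 1 of them, and the 8 with 3 or more held 5980, whereas the 8 cells with 1 UMI held 66.2 and the 618 with none held 33.4. In capture 3 the member with 2 UMIs held 684 CPM, and the 5 with 3 or more held 9580. The 5 cells just outside held 328 and the 629 with none held 43.1. In capture 1, which had no member with 2 UMIs, the 3 cells just outside held 31.7 CPM and the 159 with none held 27.7.

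Beyond the markers, 405 of 7856 genes tested (5.16%) were higher in spindle-like cells than in all other cells and 356 (4.53%) were lower, at an adjusted p under 0.05 in edgeR's quasi-likelihood test with the capture as a block and Benjamini-Hochberg adjustment. Each test compares sums of 2, 10 and 6 cells with the sums of the remaining 164, 633 and 637. Without capture 2 the counts were 240 higher and 237 lower, and without capture 3 they were 210 and 110. The median log2 fold change over all genes tested was -0.13, and 0.25 when libraries were scaled by total UMIs without TMM factors, which also turned the split of calls from 53.2% to 77.6% higher. The genes and groups named here as higher or lower kept their direction under both scalings. Counts of lists against all other cells below are to be read beside the 5.16% and 4.53% of all genes. Settings with at least 1 UMI of Slc26a4, or with Malat1 at 2% or more, left 1 member in capture 1 and used captures 2 and 3 only.

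Among the named genes, the largest log2 fold change belonged to Wfdc18, a secreted protein with a whey acidic protein domain (chromosome 11, 83709015 to 83711348). It took 39031, 32018 and 35080 CPM in the 3 captures, against 14.5, 15.7 and 99.0 CPM in other cells. Its log2 fold change was 9.79 ± 0.43 (SE, edgeR adjusted p = 5.73e-27, n = 3 captures), and it was past the threshold without each capture in turn. The call was lost when at least 1 UMI of Slc26a4 was required of members, in captures 2 and 3 only (8.32, edgeR adjusted p = 0.687). It was also lost when Lgr5 and Epyc had to be at 0 (9.23, edgeR adjusted p = 0.327). Wfdc18 stood at 7192 CPM (6793 to 7608) against 174 in nuclei. The level was very uneven between cells, from 0 to 1934 UMIs per 10000 with a median of 107. It was counted in 16 of 18 cells, and also in 13.01%, 9.19% and 11.2% of intermediate-like cells of captures 1 to 3, whose median depths were 8030, 6503 and 5997.5 UMIs and who held mostly 1 or a few UMIs of it. In nuclei the share with a UMI was 48.5% of spindle-like against 13.2% of intermediate-like nuclei.

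Lect1, which encodes chondromodulin, an inhibitor of blood vessel growth known from cartilage, was high in nearly every member. Its levels were 1963, 1761 and 2064 CPM in spindle-like cells and 9.07, 10.1 and 5.60 CPM in other cells, a log2 fold change of 7.46 ± 0.34 (edgeR adjusted p = 3.50e-101). Nuclei gave 1884 CPM (1683 to 2103) against 71.0. It was counted in 17 of 18 cells and 58 of 68 nuclei, or 85.3%, against 2.76% of intermediate-like nuclei. Lect1 also had the pattern most like Slc26a4 over the 5987 nuclei, with a Pearson correlation of 0.351 of log-scaled UMIs, followed by Itgbl1 at 0.347 and Rspo2, a secreted activator of Wnt signalling, at 0.272. Lgr5, which the gate limits in members, had rank 11 at 0.215, above P2rx2 with rank 18 at 0.194. These correlations cover all nuclei past the limits, share 1 library and the same depths, and are descriptions only.

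Genes of tight junctions and keratins of simple epithelia were among the 405 higher genes. Of 25 genes listed as typical of simple epithelia, 16 could be tested, and 14 were higher and none lower in edgeR, none of them lower at an unadjusted p under 0.05 and 12 higher and 0 lower in DESeq2, with a median log2 fold change of 4.14 against -0.13 over all genes tested. The summed level of the list was 5058, 4980 and 7162 CPM in spindle-like cells against 519, 487 and 397 in other cells, and 2909 against 1140 in nuclei. Leaving out capture 1, 2 or 3 changed the count of higher genes by less than 1.5 times.

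Cldn6 was close to absent elsewhere. It gave 266, 236 and 352 CPM in spindle-like cells and 0, 0.419 and 0.763 in other cells (log2 fold change 8.64 ± 0.51, edgeR adjusted p = 1.15e-61). In nuclei it had the largest ratio of the genes counted at 20 or more UMIs, the gate genes left out, 124 CPM (77.0 to 190) against 2.23, although only 13 of 68 nuclei held it. Cldn4 and Cldn23, also tight-junction claudins, had log2 fold changes of 7.12 ± 0.44 and 6.43 ± 0.51, and Cldn7, Cldn3 and Cldn9 had 4.99, 4.11 and 3.62.

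The keratins of simple epithelia followed. Krt18 stood at 665, 763 and 1385 CPM against 7.26, 9.85 and 7.38 (log2 fold change 6.39 ± 0.35, edgeR adjusted p = 2.02e-69). Its partner Krt8 stood at 366, 513 and 806 CPM against 5.44, 5.66 and 6.36 (6.21 ± 0.36), and Krt7 had a log2 fold change of 4.88 ± 0.35. In each capture the sum over the spindle-like cells lay far above that of the rest. The levels were uneven between cells. In capture 2, 1 cell held 65 of the 113 UMIs of Krt18 and 39 of the 76 UMIs of Krt8. Krt18 was counted in 16 of the 18 cells. Epcam, an adhesion molecule of epithelial cells, was counted in all 18 cells with a log2 fold change of 3.17 ± 0.31.

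Further genes named by the size of their difference were Ptprz1, a receptor-type tyrosine phosphatase (log2 fold change 7.58 ± 0.51), Tppp3, a tubulin-binding protein (6.18 ± 0.47), Arl4c, a small GTPase of the Arf family (6.04 ± 0.36), and Pthlh, parathyroid hormone-related protein (6.01 ± 0.46). Tmprss3, a membrane serine protease whose loss causes deafness, had 5.48 ± 0.46, at 200, 94.5 and 101 CPM against 1.21, 3.14 and 0.509. The antisense transcript Abhd11os had 5.43 ± 0.45. It overlaps Abhd11, and its reads cannot be told apart from those of its partner if strand was not used in counting. These genes passed the edgeR test in the full data and without each capture in turn, and the rule required at least 2 times the CPM of other nuclei in the nuclei.

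**Figure D2:**
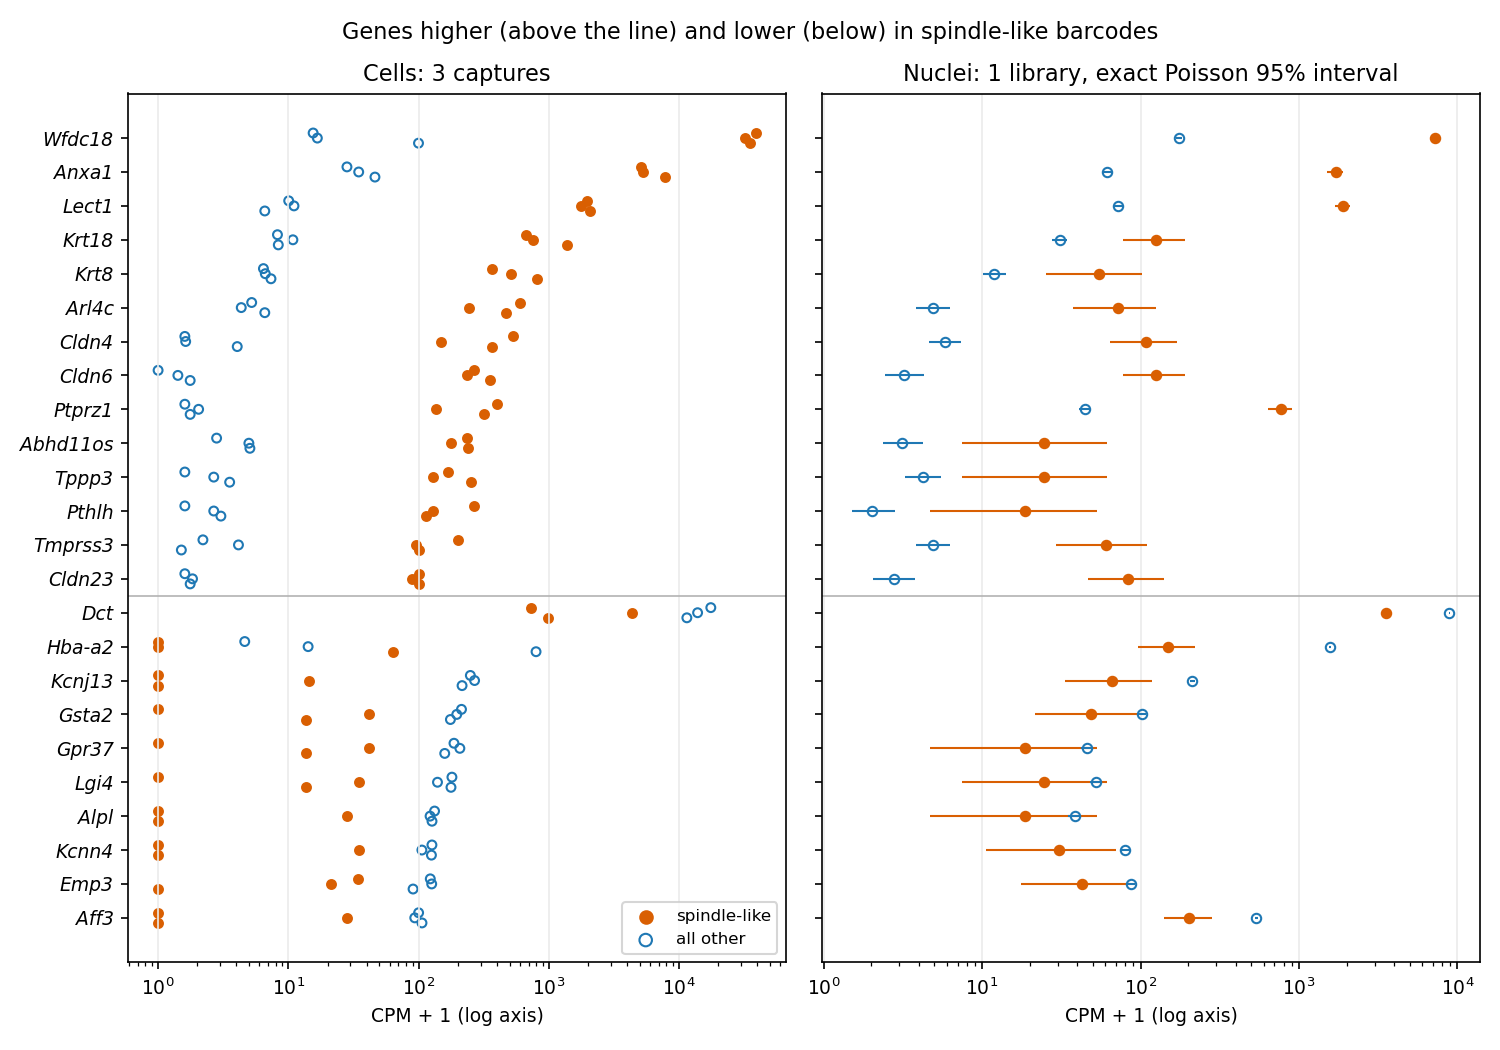
CPM + 1, on a log axis, of the genes named by the size of their difference, with the 3 captures of cells on the left and the nuclei, with exact Poisson 95% intervals, on the right. Filled points are spindle-like barcodes and open points all other barcodes past the same limits. Wfdc18 lies highest, between 32018 and 39031 CPM in spindle-like cells. The rule named only genes that differ in the same direction in every library, so lower genes such as Dct lie below the other barcodes throughout.

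Annexins and the S100 proteins that bind them were the next group, and 7 of 10 genes tested were higher and none lower in edgeR, apart from Anxa1 itself (median log2 fold change 1.59). At an unadjusted p under 0.05 the counts were also 7 and 0, and DESeq2 called 5 higher and 0 lower. Anxa5 stood at 4059, 4089 and 6646 CPM against 214, 211 and 185 (log2 fold change 4.13 ± 0.27, edgeR adjusted p = 1.17e-48). Anxa2 had 4.20 ± 0.29 and S100a6 4.99 ± 0.32, while Anxa4, Anxa7 and Anxa11 did not pass the test, at 0.66, 0.18 and -0.10. The summed level of the list without Anxa1 was 7320, 7200 and 11832 CPM against 675, 673 and 609, and 2328 against 466 in nuclei. With Malat1 at 2% or more, in captures 2 and 3 only, 4 genes were higher. Without capture 2 or without capture 3, 4 genes were higher, and Anxa3, Anxa6 and S100a10 were those that lost the call.

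Of transcription factors of the otic epithelium 9 of 13 tested were higher and 1 lower, beside 5.16% and 4.53% of all genes tested. The median log2 fold change was 1.30, although DESeq2 called 4 higher and 1 lower. Hmx3, a homeobox gene of the dorsal otic vesicle, had a log2 fold change of 2.97 ± 0.57 from 11 UMIs, and Lmx1a had 2.12 ± 0.45. Gata3, Sox9 and Tbx1 were higher by 1.30, 1.00 and 1.27 but lost the call in several alternatives. The list held 4 higher genes without capture 1, 4 without capture 2 and 3 without capture 3. With Malat1 at 2% or more, in captures 2 and 3 only, it held 2. Tbx2 was the lower gene. In nuclei 2 of 8 counted were at 2 times or more and the median log2 ratio was 0.10, against 0.15 over all genes counted. Against marginal-like cells, those rich in genes of the potassium-secreting layer, 1 of 13 was higher and 1 lower, close to the 7.20% and 6.13% of all genes in that comparison, with a median of -0.31.

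Potassium channels and transporters differed in both directions, with 7 of 21 higher and 8 lower, beside 5.16% and 4.53% of all genes tested. When Malat1 had to be at 2% or more, a setting that used captures 2 and 3 only, 1 of 22 was higher and 7 lower. In nuclei 2 of 13 counted were at 2 times or more and 3 at 0.5 times or less, beside 12.3% and 7.05% of all genes counted. Kcnj16, an inwardly rectifying channel, stood at 266, 209 and 113 CPM against 9.67, 6.28 and 4.33 (log2 fold change 4.49 ± 0.43, edgeR adjusted p = 1.21e-22), and at 142 CPM against 15.3 in nuclei. Kcnk5, a background potassium channel, had 5.98 ± 0.63 from 11 UMIs, and Kcnq1, the channel through which marginal cells secrete potassium, 1.50 ± 0.32. Kcnq1 was uneven between the cells, with all 15 UMIs of capture 1 in 1 of its 2 cells. In each of captures 2 and 3 the median was 1 UMI and the highest value 10. Lower genes included Kcnj13, Kcnn4 and Kcnj10, the potassium channel of intermediate cells, at 399, 904 and 352 CPM against 2246, 1658 and 1604 (log2 fold change -2.15 ± 0.27). Without capture 2 the list held 4 higher and 7 lower genes, and without capture 3 it held 3 and 7.

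Acid-base genes beside the gate genes differed in both directions. Of 12 anion exchange, bicarbonate and proton transport genes tested, Car13 and Slc9a2 were higher (log2 fold change 1.76 ± 0.50 and 2.33 ± 0.54) and Car2, Car8 and Car14 lower. Over all genes tested 5.16% were higher and 4.53% lower, and without capture 3 the counts of the list were 0 and 1. The median of that list was -0.16, and without TMM scaling it was 0.20, with 4 higher and 2 lower. Of the other purinergic receptors and ectonucleotidases 4 could be tested, and none passed in edgeR or in DESeq2, with 1 higher at an unadjusted p under 0.05. Entpd3, an enzyme that degrades extracellular ATP, was too sparse in cells to be tested, with 11 UMIs in the spindle-like cells, and stood at 154 CPM (101 to 226) against 10.97 in nuclei. None of 7 sodium, chloride and water transport genes passed in edgeR or DESeq2, with 1 higher at an unadjusted p under 0.05, and without TMM scaling 1 was higher in each of these groups of 4 and 7. No partner of Dpp10 in the Kv4 complex had enough counts in cells.

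Of 28 hereditary deafness genes tested beside the gate genes, 9 were higher and 7 lower, against 5.16% and 4.53% of all genes tested. Their median log2 fold change was 0.91, against -0.13 over all genes. With Malat1 at 2% or more, in captures 2 and 3 only, 4 were higher. In nuclei 3 of 20 counted were at 2 times or more and 3 at 0.5 times or less, near the 12.3% and 7.05% of all genes counted, with a median log2 ratio of -0.33 against 0.15 over all genes counted. Higher were Tmprss3, Cldn14, Esrp1, Grhl2, Gata3, Kcnq1, Lrp2, Cldn11 and Ceacam16. Lrp2, the endocytic receptor megalin, stood at 1231, 1100 and 1309 CPM against 395, 411 and 256 (log2 fold change 1.38 ± 0.26, edgeR adjusted p = 6.70e-06), and its adjusted p was 0.129 without capture 3. Cldn11, which seals the basal cell layer, stood at 1065, 1660 and 1624 CPM against 662, 613 and 378 (1.02 ± 0.26), and lost the call without capture 2 or 3. Ceacam16, a tectorial membrane protein, rested on 13 UMIs, none of them in capture 3, and 7 and 4 of them came from 2 cells with no UMI of Slc26a4. Its log2 fold change turned to -1.21 when at least 1 UMI of Slc26a4 was required, a setting that used captures 2 and 3 only. Without capture 1 there were 5 higher and 7 lower genes in the list, and without capture 3 there were 3 and 4.

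Antioxidant genes were split. Gpx3, a secreted glutathione peroxidase, stood at 3727, 1586 and 2039 CPM against 500, 644 and 535 (log2 fold change 1.59 ± 0.25, edgeR adjusted p = 1.42e-08), and Mgst1 and Aldh1a1 were also higher. The metallothioneins Mt1 and Mt2 and the glutathione transferases Gsta1 and Gsta4 were lower. The list thus gave 3 higher and 4 lower of 20, beside 5.16% and 4.53% of all genes tested. Without capture 2 or without capture 3 it gave 3 and 2. Of immediate-early and heat shock genes, which can be induced by tissue dissociation, 7 of 18 were higher and none lower in edgeR, also none lower at an unadjusted p under 0.05 and 5 higher and 0 lower in DESeq2 (Fos, Jun, Junb, Jund, Hspa1a, Hspa1b and Hspb1). Their list summed to 5291, 3630 and 4305 CPM against 1909, 1982 and 1590, with Hsp90ab1 the most abundant gene in captures 1 and 2 and Jund in capture 3. In nuclei it summed to 918 against 835 CPM, with Fos and Hspa1a at 0 UMIs in the spindle-like nuclei. Without capture 3 only 2 of the list were higher. The part of dissociation in the other differences was not tested.

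**Figure D3:**
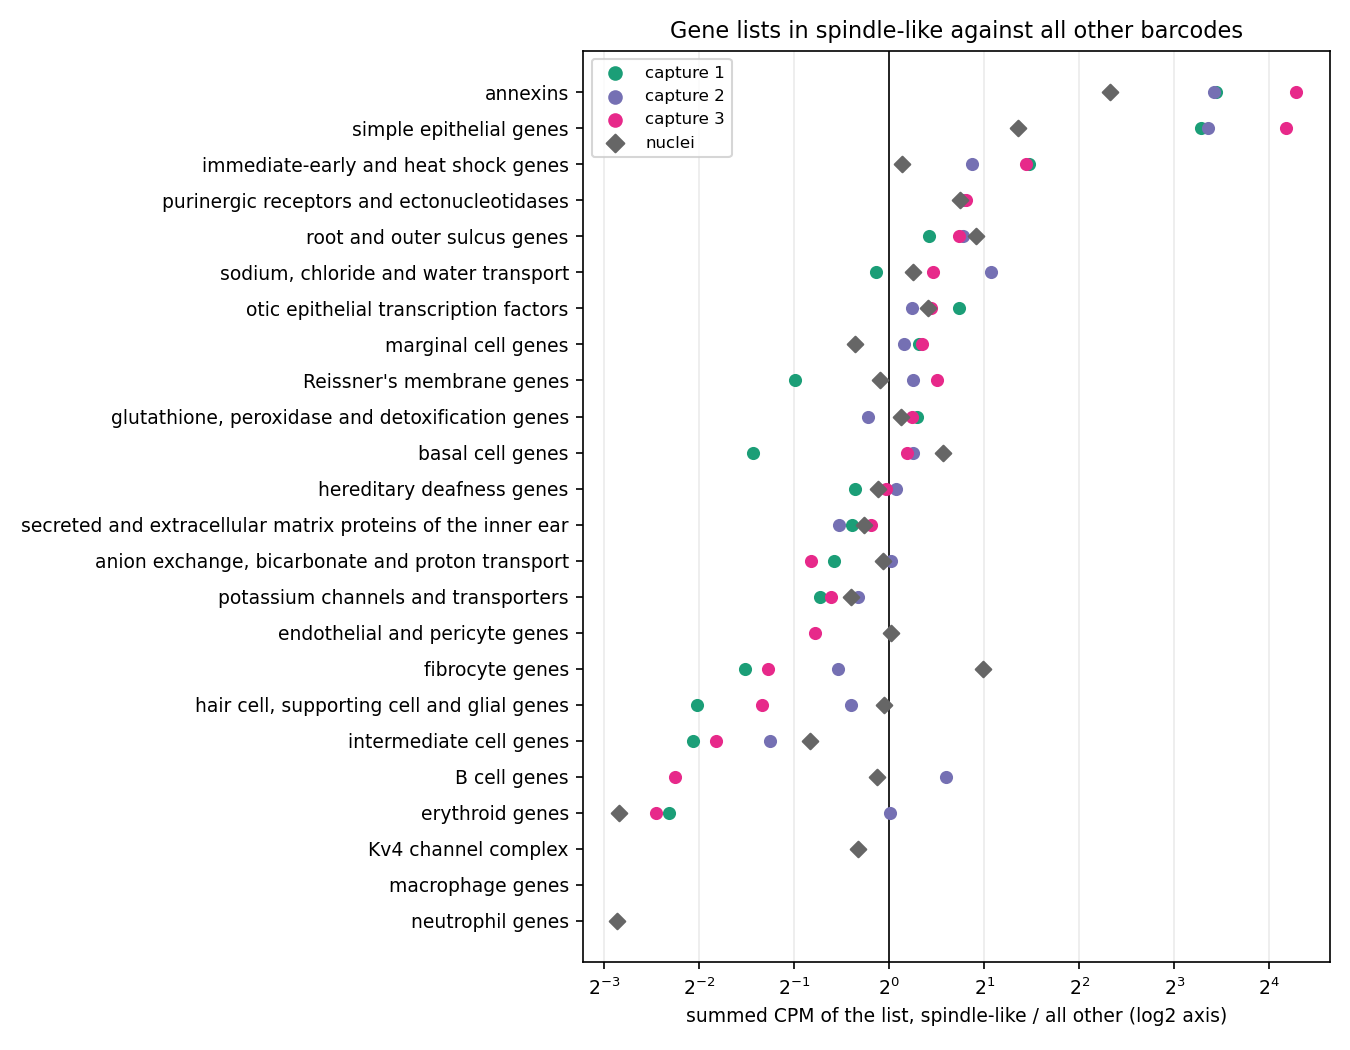
Ratio of each list's summed CPM in spindle-like over all other barcodes, on a log2 axis, with 1 point for each capture of cells and a diamond for the nuclei. A library whose spindle-like barcodes hold under 5 UMIs of a list has no point. The points of the simple epithelial list, summed to 5058, 4980 and 7162 against 519, 487 and 397 CPM in cells, all lie to the side of higher levels.

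Genes of intermediate cells, the pigmented cells of the SV, were among the 356 lower genes, and 1000 of the 1434 other cells were intermediate-like. All 17 intermediate cell genes tested were lower than in all other cells, with a median log2 fold change of -2.69. The median was -2.50 with Trpm1, the only one of the 17 at 0 UMIs, set at its floor of 3 UMIs. Against marginal-like cells 2 of 11 were lower and 0 higher in edgeR (median -0.22), beside 6.13% lower of all genes. Against the Lgr5/Epyc cells defined below 5 of 11 were higher and 0 lower (median 3.58), beside 5.61% higher of all genes. In nuclei 10 of 14 of these genes counted were at 0.5 times or less. Dct, an enzyme of melanin synthesis, stood at 732, 4352 and 982 CPM against 17575, 13912 and 11505 (log2 fold change -3.60 ± 0.35, edgeR adjusted p = 7.21e-12). Capture 2 was the highest of the spindle-like sums, but still below all of the others. In it the 5 cells with 10 or more UMIs of intermediate-like genes held 103 to 166 UMIs of Dct each, and the remaining cells 0 to 18. The call of Dct was lost without the replicate block. Kcnj13, an inward rectifier, had 2 UMIs in the 18 cells, which was 0.0317 times the level of the other cells (counting interval 0.00383 to 0.114). Alpl, Gsta2, Emp3, Gpr37, Lgi4, Aff3 and Kcnn4 were lower by -3.40 to -2.96 on the log2 scale, and all 7 kept the call without each capture.

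Blood cell markers were examined next. All 12 macrophage genes listed were at 0 UMIs in the spindle-like cells of each capture, against summed levels of 139, 160 and 325 CPM in other cells. The edgeR test called 6 of 6 lower, and 1 without capture 2, none without capture 3 and none without the block or with Malat1 at 2% or more, and DESeq2 called 2. Of erythroid genes 5 of 5 were lower, but none without capture 3, none without the block and 1 with Malat1 at 2% or more. The list summed to 200, 870 and 2039 CPM in spindle-like cells against 995, 864 and 11189 in other cells, so that capture 2 showed no lower sum. Hbb-bs was the most abundant gene in captures 1 and 3 and Car2 in capture 2. B cell genes summed to 0, 169 and 62.9 CPM against 93.1, 111 and 301, all of it Ebf1 in spindle-like cells, and the 1 gene tested did not pass, at -0.42. Hba-a2 was among the lower genes by rule (log2 fold change -4.14 ± 0.64). Of 2 endothelial and pericyte genes tested none passed in edgeR or DESeq2, with 1 lower at an unadjusted p under 0.05. Of hair cell, supporting cell and glial genes, 1 of 3 was lower.

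Marginal cells, the potassium-secreting layer that faces the endolymph, are the type that the study set beside spindle cells. Marginal cell genes as a list were 4 higher and 1 lower of 18 against all other cells, beside 5.16% and 4.53% of all genes tested. The median log2 fold change was 0.91, against -0.13 over all genes, and the counts were 1 and 1 without capture 3. Among the higher genes, Atp1b2 was uneven between cells, as described below. There were 8 genes of the list higher without TMM scaling and 1 with Malat1 at 2% or more, the latter in captures 2 and 3 only. In nuclei, where marginal-like barcodes are 2945 of 5919 others, the list summed to 12340 against 15844 CPM. For a direct comparison, 74 marginal-like cells (9, 40 and 25 per capture) were defined as having at least 3 UMIs of Kcne1, Kcnq1, Esrrb, Heyl, Abcg1 and Atp13a5, and at least 2 times those of intermediate-like and basal-like genes.

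Against marginal-like cells, 358 of 4974 genes (7.20%) were higher and 305 (6.13%) lower in spindle-like cells, and without capture 2 the counts were 141 and 112. Arl4c, Cldn6, Ptprz1, Kcnj16, Pthlh and the actin-binding calponin Cnn2 had no UMI in the 74 marginal-like cells, so that their levels were at least 80.5, 62.8, 50.4, 42.4, 31.8 and 26.5 times higher, against a floor of 3 UMIs over the group. Wfdc18 had a log2 fold change of 9.49 ± 0.37 and Lect1, with 5 UMIs in marginal-like cells, 7.81 ± 0.40 (edgeR adjusted p = 1.64e-32 for Lect1). Anxa2 stood at 1298, 1296 and 2442 CPM against 29.6, 28.2 and 20.8 in marginal-like cells. Epcam, by contrast, stood at 399, 756 and 705 CPM against 374, 359 and 484 (0.58 ± 0.26, edgeR adjusted p = 0.148).

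Of the marginal cell genes that could be tested in that comparison, 7 of 12 were lower in spindle-like cells and none higher in edgeR. Over all genes 6.13% were lower and 7.20% higher. At an unadjusted p under 0.05 none of the marginal cell genes was higher, and DESeq2 called 0 higher. Slc12a2, the Na-K-2Cl cotransporter that loads potassium into marginal cells, stood at 2396, 2868 and 2706 CPM against 7607, 8196 and 8955 (log2 fold change -1.78 ± 0.24, edgeR adjusted p = 8.05e-09). Atp1b2, a regulatory subunit of the sodium pump, had -2.02 ± 0.53. It reached 27 to 77 UMIs in each of the 6 spindle-like cells with 10 or more UMIs of marginal-like genes. Each of the other spindle-like cells held 0 to 5. Gpx3 did not pass the test, at -0.25 ± 0.25. The lower genes named by the size of their difference began with Paqr5, a membrane progestin receptor with 2 UMIs, 0.0469 times the marginal-like level (0.00562 to 0.174), and Tmem45b at 0.0525 times (0.00627 to 0.195). Lower by the same rule were Ankrd33b, which kept the call without each capture, Slc6a17, which kept it without capture 1 or 2 and did not pass the filter on low counts without capture 3, and Ccdc3, Gpr176, Cacnb4 and Cutal, each of which had 1 UMI in spindle-like cells and lost the call without capture 2, Gpr176 and Cutal also without capture 3.

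Lgr5/Epyc cells were those with 2 or more UMIs of these root and outer sulcus genes and at most 1 of Slc26a4 and P2rx2, so that root cells with counted pendrin are not among them. There were only 2 in capture 1 and 4 in capture 2, and 49 nuclei. Against these 6 cells, 279 of 4974 genes (5.61%) were higher and 210 (4.22%) lower in spindle-like cells, and without capture 2 the counts were 68 and 63. That leaves a single sum of 2 Lgr5/Epyc cells, whose spread is taken from the other classes. Wfdc18 had 8705 UMIs in spindle-like cells and none in Lgr5/Epyc cells, a difference of at least 739 times. Anxa5 stood at 4932 ± 1485 CPM (SD, n = 3) against 245 and 277 (log2 fold change 4.27 ± 0.38, edgeR adjusted p = 1.00e-17).

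Lum, which encodes the matrix protein lumican, had no UMI in spindle-like cells and 89 in Lgr5/Epyc cells, and was at least 116 times lower. Frzb and Bmp4, which encode a secreted Wnt inhibitor and a growth factor, were also without UMIs and were at least 91.6 and 27.5 times lower. In nuclei Lum was at 17.8 against 637 CPM, Frzb at 5.92 against 240 and Bmp4 at 0 against 387. The remaining lower genes by rule were Fst, Gm1673, Zmynd12, Krt19 and Apoc1, the last of which lost the call without capture 1. Fxyd6, a regulator of the Na,K-ATPase, had 1 UMI against 113.

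Other genes of the spindle-like cells were also counted in Lgr5/Epyc cells. Kcnj16 stood at 196 CPM on average in spindle-like cells and at 408 and 554 CPM in Lgr5/Epyc cells (log2 fold change -1.01 ± 0.52, edgeR adjusted p = 0.215), and in nuclei at 142 against 581 CPM. Epcam stood at -0.08 ± 0.37. Lect1 was counted in all 6 Lgr5/Epyc cells, at 354 and 277 CPM, and was higher in spindle-like cells by 2.62 ± 0.38. In nuclei Itgbl1 stood at 877 CPM in spindle-like and 858 CPM in Lgr5/Epyc nuclei, against 27.8 in marginal-like nuclei.

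The nuclei come from 1 library and were compared by size only. Of 1645 genes with enough UMIs, 202 (12.3%) were at 2 times or more the CPM of other nuclei in the spindle-like nuclei and 116 (7.05%) at 0.5 times or less. Without the Malat1 limit these counts were 431 and 55. Of the 405 genes higher in cells, 147 were counted in nuclei, where 137 were also higher and 86 were at 2 times or more. Of the 356 lower genes, 167 were counted, 123 were also lower and 1 was at 2 times or more. Counted genes had at least 20 UMIs in the spindle-like nuclei, or as many expected there from the level of the other nuclei. A sparse gene thus entered only by being high in the spindle-like nuclei. This filter by itself favours agreement for the higher genes, and the agreement was not tested.

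Agbl1, Kcnq5 and Hpse2 were prominent in nuclei and nearly missing from cells. Agbl1, a deglutamylase of tubulin, stood at 1919 CPM (1716 to 2140) against 77.1, was counted in 36 of 68 nuclei, and had 1 UMI in the 18 cells. Kcnq5, a voltage-gated potassium channel, stood at 1783 CPM (1587 to 1996) against 96.1 and had 3 UMIs in cells. Hpse2, a heparanase homologue without known enzyme activity, stood at 438 CPM (344 to 550) against 8.18 and had 0 UMIs in cells. The noncoding Gm43154 (42.1 times), the adhesion molecule Cntn1 (39.1 times), the protease Plat (20.6 times), Itgbl1 (17.6 times), Ptprz1 (17.5 times), Tdg (16.7 times) and Clstn2 (14.5 times) completed the list with Entpd3. Cntn1, Plat and Ptprz1 were also higher in cells, with log2 fold changes of 4.74 ± 0.46, 4.54 ± 0.39 and 7.58 ± 0.51, and Itgbl1 was counted in 7 of the 18 cells.

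The spindle-like nuclei were also summed by which gate gene was counted. Wfdc18 was at 774 CPM (589 to 998) in the 30 nuclei with Slc26a4 only, 8567 (7912 to 9261) in the 30 with both, and 27873 (25535 to 30367) in the 8 with P2rx2 only. Few nuclei carried these sums: of the 523 UMIs of Wfdc18 in the last group, 395 came from 1 nucleus and 118 from another, and of the 632 in the group with both, 314 came from 1 nucleus. It was counted in 8 of 30, 20 of 30 and 5 of 8 nuclei. Itgbl1 ran the other way, at 1456 (1197 to 1753), 461 (319 to 644) and 160 CPM (33.0 to 467), the last from 3 UMIs in 1 nucleus. Anxa1 was at 721, 2670 and 1865 CPM, the last from 3 nuclei, and Kcnq5 at 669, 2955 and 1705. Lect1 and Dpp10 were spread more evenly, Lect1 at 1534, 2033 and 2718 CPM and Dpp10 at 879, 773 and 799. Of the 68 nuclei, 8 held a UMI of Lgr5 or Epyc. The nucleus with the most Slc26a4, 13 UMIs, held 1 UMI of Epyc and no Anxa1 or Dpp10. Nuclei with 9 and 7 UMIs of Slc26a4 and 1 UMI of Lgr5 each also had no Anxa1 or Dpp10. Another with 9 UMIs of Slc26a4 and 1 of Epyc held 11 of Anxa1 and 5 of Dpp10. Some nuclei rich in Slc26a4 thus met the rule without these markers, and their cell type was not tested. Nuclei are not replicates, and the intervals cover counting error within this library.

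**Figure D4:**
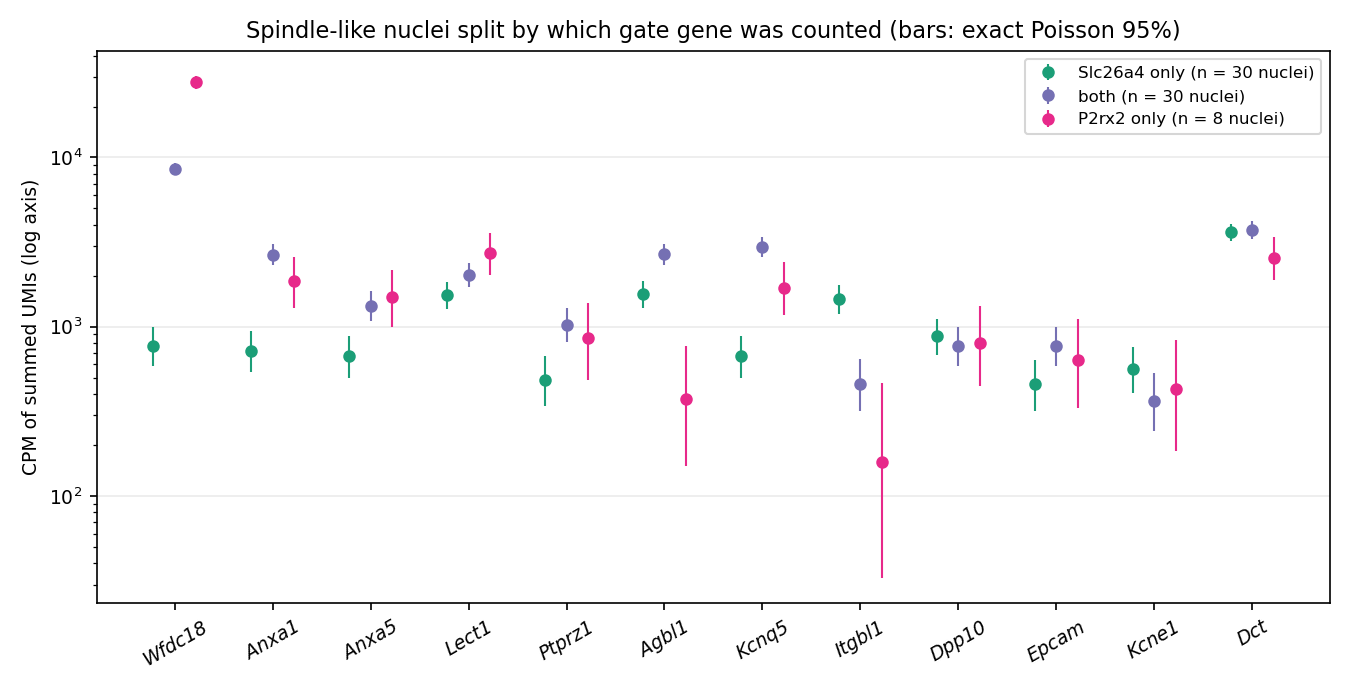
CPM of 12 genes in spindle-like nuclei with Slc26a4 only (30 nuclei), both gate genes (30) and P2rx2 only (8), on a log axis, with exact Poisson 95% intervals. Wfdc18 stands at 774, 8567 and 27873 CPM, but 395 and 118 of its 523 UMIs in the P2rx2-only group are in 2 nuclei, and the intervals of Dpp10 overlap.

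The 18 cells also differed. Marginal-like genes reached 10 or more UMIs in 6 cells with a median depth of 21401.5 UMIs, and intermediate-like genes did so in 5 cells, all from capture 2, with 2 cells in both groups. In these the median of Anxa1 was 30.1 and 25.8 UMIs per 10000. The 9 cells with under 10 UMIs of each list had a median depth of 7702 UMIs and a median of 126 UMIs of Anxa1 per 10000. A cutoff of 10 UMIs itself selects deep cells, so these depths are a description. Whether they hold material of more than 1 cell was not tested, and Scrublet marked none of them. A capture 2 cell with 3957 UMIs and 2 of P2rx2 had no Anxa1, Wfdc18 or Lect1 and 7 UMIs of Ceacam16, so it met the rule without the other markers.

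**Figure D5:**
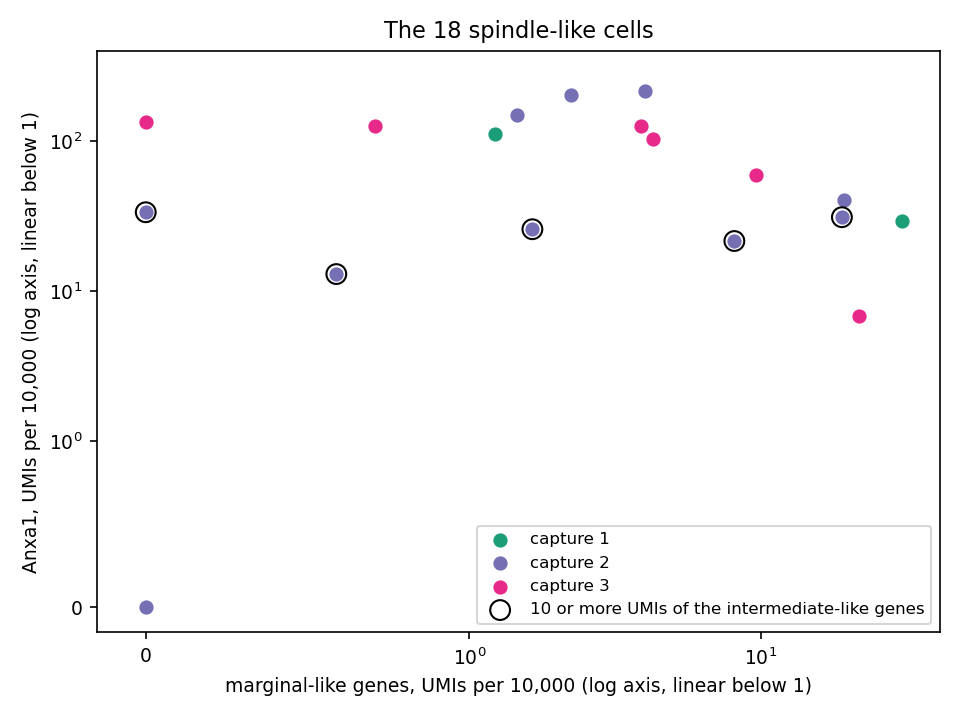
Anxa1 against marginal-like genes in each of the 18 spindle-like cells, in UMIs per 10000 on axes that are linear below 1 and logarithmic above. Black rings mark the 5 cells with 10 or more UMIs of intermediate-like genes, and the 9 cells low in both sets of genes have a median of 126 for Anxa1.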

How the data were processed

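The authors prepared 10x Genomics Chromium libraries, aligned reads to mm10 and counted UMIs with Cell Ranger 2.0.0, as the submitters' processing notes state. The deposited matrices hold raw counts per gene and barcode, before the captures were aggregated, with 27998 genes in the cell files and 48816 in the nucleus file, 27873 of them in both. The members and gene lists were chosen with earlier results of these data known.

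Raw counts were summed per capture over spindle-like and over all other barcodes. Sums were tested in edgeR 4.0.16 (R 4.3.3) with TMM, filterByExpr, a robust quasi-likelihood fit, the capture as a block and Benjamini-Hochberg adjustment (threshold 0.05). Gate genes and Anxa1 and Dpp10 got no p and are in no count of calls. Marginal-like and Lgr5/Epyc comparisons used 1 fit over 5 classes, with sums of at least 5 barcodes for the marginal-like, intermediate-like and basal-like classes and at least 2 for the spindle-like and Lgr5/Epyc classes. The design gave both limits for the last class, and the lower was used. Sums of a capture come from 1 suspension, which pairs them, and over 1866 genes the correlation of their deviations was 0.083, 0.041 and 0.160. On simulated sums for the comparison with all other cells (7862 genes), 41 of the 99 genes given a 4-fold difference and 3 of the 101 given a 2-fold difference passed in edgeR, with 0 false calls. For Lgr5/Epyc cells (4994 genes) these were 11 of 96 and 0 of 104. The simulation gave every gene the same dispersion of 0.05 and did not model uneven levels between single cells. Its false calls are therefore no estimate of the error rate of the real calls.

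By rule, the genes named were the 15 with the largest log2 fold change among calls higher in every capture, with at least 20 UMIs in spindle-like cells and 2 times the CPM in nuclei. The 10 largest lower genes needed at least 20 UMIs expected and 0.5 times the CPM or less. In nuclei they were the 15 with the largest ratio, and in the 5-class comparisons 8 each way. Some genes that met these rules are not reported here. The likeness to Slc26a4 was the Pearson correlation of log1p of UMIs per 10000. Nuclei, 1 library, got exact Poisson and binomial 95% intervals (scipy 1.17.1) and no test. Scrublet (scanpy 1.11.5) scored doublets, which were removed in an alternative only, at 0.8% of barcodes for every 1000. DESeq2 1.42.0, other scalings, gates and limits, and each capture left out were alternatives. Gene positions are those of GENCODE on mm10.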

Additional observations from a re-analysis of the deposited data

Results flagged for a closer look

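Mitochondrial transcripts differed in opposite directions in cells and nuclei. They took 18.7%, 21.1% and 14.995% of the summed UMIs of spindle-like cells in captures 1 to 3, against 28.5%, 30.3% and 32.6% in other cells, and edgeR called 12 of 13 mitochondrial genes lower and none higher (median log2 fold change -1.17), also none higher at an unadjusted p under 0.05, and DESeq2 called 11 lower and 0 higher. In spindle-like nuclei they took 12.2% against 8.48% in other nuclei. The other cells were mostly intermediate-like, and the median share per cell was 15.7%, 20.4% and 12.1% in spindle-like, 18.6%, 17.5% and 13.98% in basal-like and 29.5%, 31.6% and 35.3% in intermediate-like cells. Per nucleus it was 8.46% in spindle-like, 6.99% in basal-like and 1.95% in marginal-like nuclei. Neither direction is thus particular to spindle-like barcodes. The difference between cells and nuclei was not tested, since there is 1 nucleus library.

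Of the 405 genes higher in spindle-like cells, 3 were at 0.5 times or less in the nuclei. Ank3, a membrane scaffold of the spectrin network, had a log2 fold change of 1.11 in cells and a CPM ratio of 0.435 in nuclei. Pcsk6, a proprotein convertase, had 1.15 and 0.294 from 15 UMIs in the spindle-like nuclei. Slc12a7, a potassium-chloride cotransporter, had 1.51 and 0.418 from 11 UMIs, and its call in cells was lost without capture 2. The difference itself was not tested for any of them.

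Among barcodes under the Malat1 limit, which no comparison used, 13 of the nuclei and 1 in each capture of cells met the gate on Slc26a4, P2rx2, Lgr5 and Epyc.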

How the results depend on the processing

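Depth limits these results: the tests rest on 18 spindle-like cells. Of 127 called genes followed, 61 kept their direction and side of the threshold under every alternative that tested them. Some alternatives did not test all of these genes. Of the 127, 66 lost the call under at least 1 alternative, and 2 reversed under 1 alternative each. Ceacam16 went to a log2 fold change of -1.21 when at least 1 UMI of Slc26a4 was required, which also left out capture 1. Hbb-bt, from -4.04 to 0.47 with 1 capture left out, turned without capture 3. Wfdc18 lost the call when at least 1 UMI of Slc26a4 was required (log2 fold change 8.32, edgeR adjusted p = 0.687) and when Lgr5 and Epyc had to be at 0 (9.23, 0.327), settings that move excluded members into the other cells. The first of these settings also left out capture 1. The causes were not tested.

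Counts of genes higher and lower against all other cells were 260 and 147 in DESeq2 and 690 and 199 without TMM scaling. With Malat1 at 2% or more, a setting that used captures 2 and 3 only, these counts were 232 and 200. With 1 capture left out they ranged from 210 to 339 higher and from 110 to 272 lower. Against marginal-like cells DESeq2 called 198 lower, and with 1 capture left out 141 to 372 were higher and 112 to 248 lower. Against Lgr5/Epyc cells DESeq2 called 155 higher and 180 lower of the 3232 genes to which it gave an adjusted p, and with 1 capture left out 68 to 321 were higher and 63 to 225 lower. Without the Malat1 limit 431 genes were at 2 times or more and 55 at 0.5 times or less in nuclei. The share of spindle-like nuclei was 0.601% at 3 or more UMIs and 0.757% without the Malat1 limit. Without the replicate block the counts were 444 and 422 against all other cells, 331 and 296 against marginal-like cells and 256 and 174 against Lgr5/Epyc cells, and Dct and Hba-a2 lost the call. No paired analysis was possible because cells and nuclei were separate suspensions, for any comparison between them.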

Other observations

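Barcodes that met both gates, with 2 or more UMIs of Slc26a4 and P2rx2 and 2 or more of Lgr5 and Epyc, were counted in neither class. There were 0, 3 and 3 in captures 1 to 3 and 11 nuclei. The 3 cells of capture 2 had 18 UMIs of Slc26a4 and none of P2rx2, Anxa1 or Kcnj16, and the 3 of capture 3 had 32 of Slc26a4, 2 of P2rx2, 15 of Kcnj16 and none of Anxa1. In the 11 nuclei Slc26a4 was at 1270 CPM, Kcnj16 at 977 and Anxa1 at 440, the last from 9 UMIs in 1 nucleus.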
